A study of Homo sapiens with 40 samples.

Results

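The distal segment of the long arm of chromosome 20 examined here runs from 45 to 64 Mb (GRCh38) and covers most of cytogenetic band 20q13. Its members were the consensus open regions with a midpoint in that interval. Consensus regions were made by merging the ATAC-seq peaks of all 40 libraries wherever they shared at least 1 bp, and those found in at least 2 lists were kept. There were 1544 members of 71600 regions in the genome (2.156%), and the remaining 1300 regions of chromosome 20 served as the comparison. Of the 1650 merged regions in the segment, 106 were present in 1 list only and were left out, while 76 of the members kept were present in exactly 2 lists. At the borders, the last region outside was the STK4 promoter and the first inside lay in a STK4 intron with a peak in 35 libraries. At the far end, the last member was the promoter shared by SAMD10 and PRPF6, with a peak in all 40 libraries, and the first region outside had a peak in 2.

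ATAC-seq, in which a transposase inserts adapters into accessible DNA, was performed on 2 lines. BT474 is a HER2-overexpressing breast carcinoma line that responds to the HER2 antibody trastuzumab, and BT474R is a single trastuzumab-resistant clone obtained from it, so a difference between the lines is a difference between BT474 and that clone. Cells of both lines were serum-starved and then given EGF (a ligand of EGFR), HRG (heregulin, which binds HER3 and HER4) or vehicle (control) for 1, 12 or 24 h, beside untreated cells taken at 0 h (baseline). This gave 20 groups of 2 libraries. Treatments were made in duplicate according to the study's methods, and no source used here states that duplicates came from separate passages or days, so the p-values measure the spread between these libraries, and EGF and HRG were compared with the same control libraries. Each library was available as a list of peaks with a score and without reads. The depth of the libraries is therefore unknown, and a region without a peak is one where none was called. The lists held 47571 to 56846 peaks in BT474 and 32479 to 56494 in BT474R, where the 4 shortest were the control and EGF libraries at 12 h. All 8 luminal marker promoters examined, among them GATA3, FOXA1 and ERBB2, were open in all 40 libraries, and all 3 leukocyte marker promoters were open in none. Among the other markers, KRT14, PECAM1 and COL1A2 had no peak, whereas the VWF, CDH5 and COL1A1 promoters were open in all 40 libraries. Of the basal markers besides KRT14, TP63 was open in 20 BT474 and 15 BT474R libraries and KRT5 in 7 and 14. The fibroblast marker PDGFRB was open in 12 BT474 and 0 BT474R libraries.

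The 20q13 segment is gained or amplified in many breast tumours and has been studied for the genes that gain brings along. These include ZNF217, a zinc finger repressor, NCOA3, a coactivator of nuclear receptors, AURKA, a mitotic kinase, CYP24A1, which inactivates vitamin D, and TFAP2C, a transcription factor of luminal breast cells. Enhancers are stretches of open chromatin away from gene starts at which transcription factors bind, and growth factor receptors act on many of them through AP-1, the dimer of FOS and JUN proteins. DNA copy number was not measured in these libraries, and its part in the density, width, rank and line differences given here was not tested.

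The sequences of regions on which the ligand results below turn are shown first, as 50 bases on either side of the strongest summit in GRCh38, read 5′ to 3′. The SDC4 and BCAS4 introns rose in rank with a ligand and the region near TFAP2C fell (limma, adjusted p under 0.05). The other 3 had a peak in more ligand than control libraries at an unadjusted p only. Capitals mark matches to the AP-1 letters TGANTCA or the CEBP letters TTGCNNAA on either strand. The first motif was found within 100 bp of the summit in 16.3% of all 71600 regions and the CEBP letters in 11% of them.
3.9 kb from the start of KCNS1, chr20:45104922-45105022, plus strand: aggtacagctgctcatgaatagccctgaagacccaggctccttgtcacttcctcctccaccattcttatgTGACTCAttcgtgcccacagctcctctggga
SDC4 intron, chr20:45336768-45336868, plus strand: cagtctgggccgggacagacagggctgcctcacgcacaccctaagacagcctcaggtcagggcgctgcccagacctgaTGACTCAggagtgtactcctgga
53.8 kb from the start of CEBPB, chr20:50244576-50244676, plus strand: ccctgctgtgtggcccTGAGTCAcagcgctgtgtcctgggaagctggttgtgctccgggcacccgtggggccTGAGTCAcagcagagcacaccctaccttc
no protein-coding start within 100 kb, chr20:53926731-53926831, plus strand: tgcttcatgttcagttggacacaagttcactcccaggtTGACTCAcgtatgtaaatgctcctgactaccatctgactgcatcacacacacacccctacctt
BCAS4 intron, chr20:50798786-50798886, plus strand: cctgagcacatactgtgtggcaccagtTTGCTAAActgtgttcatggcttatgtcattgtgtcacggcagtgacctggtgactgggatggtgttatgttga
39.8 kb from the start of TFAP2C, chr20:56669056-56669156, plus strand: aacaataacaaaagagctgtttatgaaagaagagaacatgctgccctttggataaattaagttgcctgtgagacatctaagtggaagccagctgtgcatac
The first 4 hold the AP-1 letters, and the region near CEBPB holds them 2 times. The BCAS4 window holds the CEBP letters and no AP-1 match. The window shown near TFAP2C holds neither, although within 100 bp of its summit, the distance behind the shares above, there is a CEBP match. A match of letters does not show that a factor was bound.

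Open regions were far denser in the segment than elsewhere. The segment held 81.3 regions per Mb, against 28.6 on the rest of chromosome 20 and 23.6 in the genome, which is 2.84 and 3.44 times as many. Most of the excess lay away from promoters, defined here as regions within 1 kb of an annotated transcript start. Promoter regions numbered 14.5 per Mb in the segment and 8.91 on the rest of the chromosome, whereas other regions numbered 66.7 and 19.7 per Mb. Genes were not much denser, with 9.95 protein-coding starts per Mb against 7.86, so that the segment had 8.17 regions per start and the rest of the chromosome had 3.64. These are counts over regions, and no test was made of them.

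**Figure D1:**
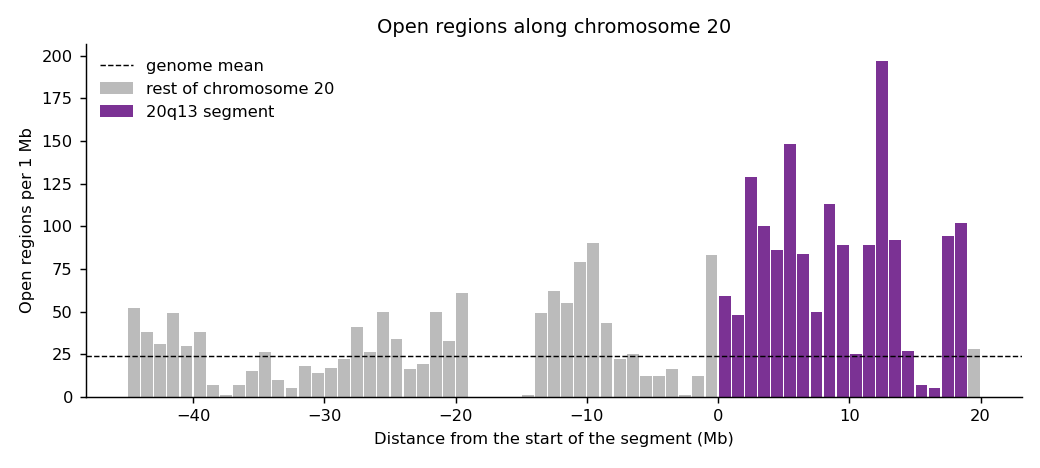
Open regions in each 1 Mb bin of chromosome 20 (y axis, number of regions) against the distance from the start of the segment in Mb (x axis), with segment bins in purple, the rest of the chromosome in grey and the genome mean of 23.6 regions per Mb as a dashed line. The tallest bar, with 197 regions, lies 12 to 13 Mb into the segment, and the bars near 15 to 17 Mb fall below the genome mean.

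The density was uneven along the segment. The bin at 57 to 58 Mb, which holds the starts of BMP7, a growth factor of the TGF-beta family, and of PMEPA1, an inhibitor of TGF-beta signalling, contained 197 regions and ranked first of the 2814 bins of the genome with a region. It was followed within the segment by the bin at 50 to 51 Mb, with CEBPB and PTPN1 and 148 regions (rank 4), and by the bin at 47 to 48 Mb, with NCOA3, SULF2 and ZMYND8 and 129 regions (rank 6). The bin at 53 to 54 Mb had 113 regions and a single protein-coding start, that of ZNF217 (rank 10). The sparsest bins were those at 61 Mb with 5 regions, inside CDH4, at 60 Mb with 7 regions and at 55 Mb with 25, the latter pair without a protein-coding start. The bin with the most protein-coding starts of the segment, at 45 Mb with 41, had 59 regions, of which 23 were promoters. The bin at 63 Mb had the most promoter regions, 44 of its 102 (rank 20).

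The members were wider and more often intergenic than regions elsewhere on the chromosome. Their median width was 701 bp, against 552.5 bp on the rest of chromosome 20 and 551 bp in the genome, and the widest covered 11019 bp at the PMEPA1 promoter. Of the members, 739 (47.9%) were intergenic, compared with 26.6% on the rest of the chromosome, and 276 (17.9%) were promoters, compared with 31.2%. A peak was present in all 40 libraries at 578 members (37.4%), against 35.5% on the rest of the chromosome. Among regions outside promoters that share was 33.0% against 24.8%, and among promoters it was 57.6% against 59.3%.

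Scores were compared as ranks, since they vary with how deeply a library was sequenced. The list percentile is the rank of a region among all peaks of its library, where 100 is the highest score. The median list percentile of the members was 57.4 ± 1.24 (SD, n = 20 libraries) in BT474 and 57.3 ± 1.23 in BT474R, and that of the rest of the chromosome was 52.9 ± 0.66 and 52.2 ± 0.79. The members ranked higher in each of the 40 libraries, by at least 1.83 points. The difference was larger outside promoters, where the medians were 52.8 and 52.6 in the segment and 40.6 and 40.5 on the rest of the chromosome. By bin, the median was highest at 56 Mb, where TFAP2C and AURKA start (65.8), at 53 Mb (63.6) and at 57 Mb (61.9). It was lowest at 55 Mb (22.5), 61 Mb (23.9) and 60 Mb (30.6).

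Of the 10 highest-ranked members 7 were promoters. The PMEPA1 promoter, at chr20:57702878-57713896, had a mean list percentile of 99.97 over the 40 libraries. It was followed by the promoters of BCAS1, a gene first found amplified in breast cancer (99.96), and of ZMYND8, a reader of histone acetylation. BMP7, ZNF217, TFAP2C and PTK6, a tyrosine kinase expressed in breast tumours, were also among them. The ZNF217 region lay at an alternative start 16.7 kb from the gene's own. The other 3 of the 10 were not promoters, and none had a protein-coding start within 100 kb. They were chr20:53784995-53788113 and chr20:53863515-53868376, between ZNF217 and BCAS1, and chr20:57984265-57988618, beyond PMEPA1.

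Gene lists gave the same picture at promoters. All 21 genes listed for breast cancer gain had a promoter region open in all 40 libraries, and the median of their mean list percentiles was 98.9. Of 19 genes of receptor and growth factor signalling in the segment, 13 had a promoter region and 10 had one open in all libraries (median 95.1). Of 19 transcription factor genes, 15 had a region and 13 one open throughout (median 81.2). Housekeeping genes were nearly complete, with 23 of 24 open throughout (median 89.3). The lowest list was that of matrix and protease genes, with 8 of 18 having a region and a median of 42.9, and MMP9, a matrix metalloprotease, the seminal proteins SEMG1 and SEMG2 and the elastase inhibitor PI3 had none. GNAS, which encodes the stimulatory G protein subunit, had no start region open in all 40 libraries, and its best was a 412 bp region at an alternative start, open in 20 BT474 and 19 BT474R libraries. Of all 189 protein-coding genes that start in the segment, 121 (64%) had a promoter region open in all libraries and 46 (24.3%) had none, compared with 59.7% and 27.6% of 355 genes on the rest of the chromosome.

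The share of members with a peak was lower in BT474R than in BT474. It was 72.4% ± 4.07 (SD, n = 20 libraries) in BT474, with libraries at 65.9 to 80.8%, and 59.9% ± 6.25 in BT474R, with libraries at 46.5 to 69.6%. The rest of the chromosome went from 69.7% ± 3.35 to 60.2% ± 8.70 and the genome from 68.3% ± 3.35 to 62.2% ± 9.36. The open share of the segment minus that of the rest of the chromosome was 2.76 ± 1.76 points in BT474 and -0.37 ± 3.32 points in BT474R. The length of the peak lists moved with this share, and its part in the difference was not tested. As a share of its own list, which does not depend on list length in the same way, the segment held 2.33% ± 0.06 of the peaks in BT474 and 2.16% ± 0.14 in BT474R. Without the 12 h libraries these shares were 2.34% ± 0.07 and 2.08% ± 0.08, and the open shares were 71.9% and 62.5%. At 12 h the mean share of the list was higher in BT474R in controls (2.31% in BT474, 2.40% in BT474R) and with EGF (2.29% and 2.37%). With HRG at 12 h it was lower in BT474R (2.36% and 2.21%). The rest of the chromosome held 1.83% ± 0.02 of the peaks in BT474 and 1.75% ± 0.03 in BT474R over all libraries.

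The conditions differed in how far apart the lines were. At baseline the open shares of the segment were 66.8 and 65.9% in the BT474 libraries and 62.8 and 55.5% in the BT474R libraries. In controls at 1 h they were 69.4 and 69.0% in BT474 and 69.6 and 65.8% in BT474R, the only condition in which the lines overlapped. In controls at 12 h they were 69.4 and 68.8% in BT474 and 46.5 and 54.3% in BT474R. The mean difference was between -1.46 points (control 1 h) and -22.9 points (EGF 12 h), and for the rest of the chromosome in the same conditions it was 2.12 and -24.7 points. Ligands went with a higher open share of the segment in BT474, with means of 69.8% in controls, 75.3% in EGF-BT474 and 74.2% in HRG-BT474. The rest of the chromosome was also higher with ligand at 12 and 24 h. Its means in control, EGF and HRG libraries of BT474 were 67.5, 68.8 and 66.3% at 1 h. They were 65.8, 73.7 and 72.7% at 12 h and 69.3, 74.9 and 70.7% at 24 h. Over all regions the means at 24 h were 68.5, 73.1 and 69.7%. In BT474R the segment means were 57.8% in controls, 60.03% in EGF-BT474R and 62.0% in HRG-BT474R, within the spread of the control libraries.

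**Figure D2:**
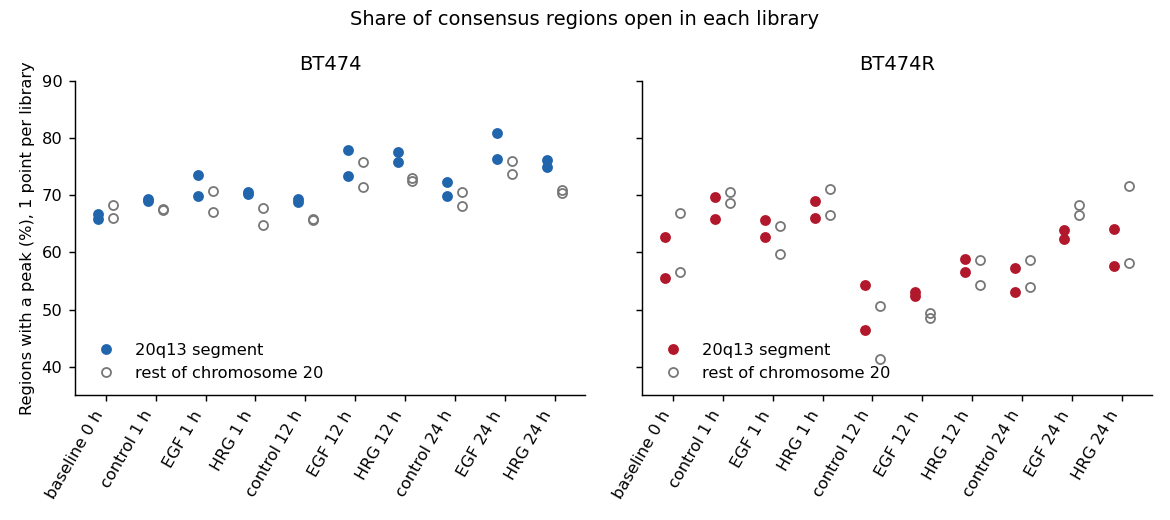
Share of consensus regions with a peak (y axis, %) in each library by condition (x axis), for the segment (filled points) and the rest of chromosome 20 (open points), with BT474 on the left and BT474R on the right. The BT474 libraries lie between 65.9 and 80.8% for the segment, and the lowest BT474R library, a 12 h control, lies at 46.5%.

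Presence of a peak was then compared between the lines region by region, 20 libraries against 20, with Fisher's exact test and Benjamini-Hochberg adjustment over all 71600 regions. In the segment 135 regions (8.74%) were open in more BT474R libraries, against 11% of all regions and 9.38% of the rest of the chromosome. In the other direction 358 regions (23.2%) were open in fewer BT474R libraries, against 18.4% of all regions and 21% of the rest of the chromosome. In either direction 29.3% of all regions were called. A full difference was seen at 69 members (4.47%), which had a peak in all 20 BT474 and in no BT474R library, compared with 2.69% on the rest of the chromosome and 2.52% in the genome. The reverse was seen at 13 members (0.842%), compared with 1% on the rest of the chromosome and 0.957% in the genome. With every list cut to the same number of top peaks, 115 members were called higher and 228 lower.

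These regions were not spread evenly, and adjoining stretches differed in direction. From 47 to 51 Mb lies the stretch with NCOA3, PREX1, SNAI1, CEBPB and PTPN1. There the open share was lower in BT474R in each of the 4 bins, without overlap between the libraries of the lines. Such bins were also found elsewhere in the segment, at 52, 54 (-25.9 points), 55 and 59 Mb, and on the rest of the chromosome. The latter included the bins at 4, 12, 13, 15 and 17 Mb, with differences of -39.5, -70.0, -45.8, -29.4 and -23.2 points. How many bins of the genome lacked overlap is not given here. In the bin at 48 Mb, which holds PREX1 and ARFGEF2, the open share was 73.9% ± 6.57 in BT474 and 42.9% ± 7.82 in BT474R. Of its 100 regions, 39 were called lower and 3 higher. The largest differences were at 52 Mb, with TSHZ2 and ZFP64, where the share went from 74.8% ± 4.47 to 31.0% ± 9.21, and at 55 Mb, without a gene start, where it went from 55.6% ± 11.1 to 12.0% ± 6.99. In the bin at 60 Mb, with 7 regions, it went from 59.3% to 17.9%. By contrast, at 56 to 59 Mb the mean open share was higher in BT474R, by 4.44, 5.66 and 4.78 points, although the libraries of the lines overlapped. Larger rises, also with overlap, were found on the rest of the chromosome, among them 18.2 points at 37 Mb and 17.8 points at 41 Mb. In the bin at 57 Mb, with BMP7 and PMEPA1, 38 of 197 regions were called higher and 21 lower. The next bin, at 59 Mb, with CTSZ and ATP5F1E, had 12 of 27 regions called lower and 0 higher, and its open share was 85.4% ± 5.16 in BT474 and 49.1% ± 6.89 in BT474R.

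**Figure D3:**
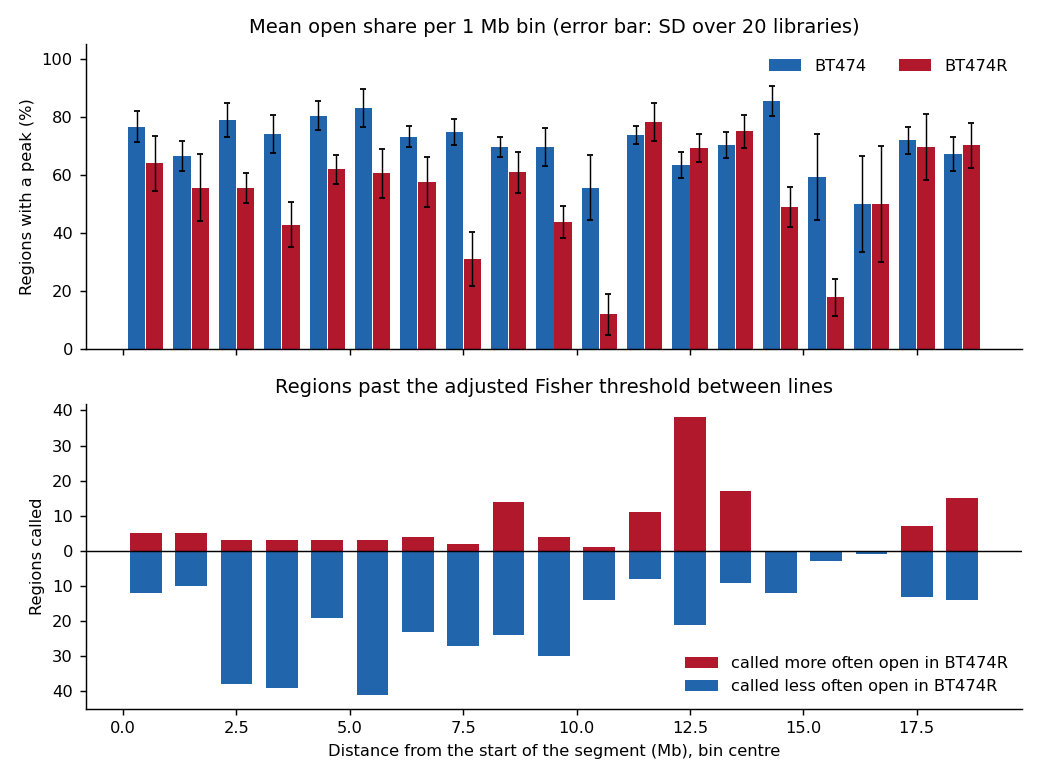
Top, mean share of the segment's regions with a peak in each 1 Mb bin (y axis, %) for BT474 and BT474R against the distance from the start of the segment (x axis, Mb), with the SD over 20 libraries as error bars. Bottom, number of regions per bin called open in more (above 0) or fewer (below 0) BT474R than BT474 libraries by Fisher's exact test at adjusted p under 0.05, with 38 called higher at 12 to 13 Mb and up to 41 called lower at 5 to 6 Mb.

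Members with a full difference in presence, 69 open only in BT474 and 13 only in BT474R, all tied on p. Those named here had the highest mean list percentile among them, so their high ranks follow from that choice. The region at chr20:48468095-48469288, with no protein-coding start within 100 kb, had a peak in all 20 BT474 libraries at list percentiles of 82.4 to 91.9 and in no BT474R library. A region in an intron of TSHZ2, a zinc finger gene, at chr20:53235830-53236845 had percentiles of 73.1 to 87.5 in BT474 and no peak in BT474R. In the other direction, an exonic region of HELZ2, which encodes a nuclear receptor coactivator, at chr20:63565643-63566673 had a peak in all 20 BT474R libraries at percentiles of 74.6 to 88.7 and in no BT474 library. A region at chr20:57122540-57123558, without a protein-coding start within 100 kb, showed the same pattern at a median percentile of 65.7. Each of the 4 had an adjusted p of 4.18e-10 in Fisher's exact test, at the smallest p that 20 against 20 libraries allow.

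Regions open in every library cannot differ in presence, so their ranks were compared as well. For this, the 25166 regions open in all 40 libraries were ranked within each library, giving a shared-set percentile (100 is the highest), and tested with limma over all of them. Of the 578 members in that set, 201 ranked higher in BT474R and 289 lower, with a median difference of -1.79 percentile points. Over the whole set 41% of regions ranked higher and 42.1% lower with a median of -0.15, and on the rest of the chromosome 152 of 462 ranked higher and 259 lower with a median of -3.42. By bin, ranks and presence leaned the same way in some bins and not in others. In the bin at 48 Mb, 5 of 22 regions ranked higher and 15 lower, with a median of -16.6 points, and at 47 Mb 7 of 49 ranked higher and 38 lower, with a median of -11.8 points. At 56 Mb, 28 of 47 ranked higher and 11 lower (median 4.17 points), and at 57 Mb 51 of 82 ranked higher and 14 lower (median 3.09 points). At 53 Mb, the ZNF217 bin, 14 regions were open in more and 24 in fewer BT474R libraries, but 22 of 46 ranked higher and 17 lower (median 0.05 points). At 58 Mb 17 were open in more and 9 in fewer, and 18 of 42 ranked higher and 15 lower (median 0.01 points).

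The largest rank changes crossed nearly the whole scale. The region at chr20:63103826-63106710, 98.2 kb from BHLHE23, a basic helix-loop-helix factor gene, had a shared-set percentile of 11.7 ± 3.43 (SD, n = 20 libraries) in BT474 and 96.7 ± 1.53 in BT474R. The difference was 85.0 points (SE 0.693, limma adjusted p = 4.2e-28). Its neighbour at chr20:63114034-63115512 rose by 69.1 points, from 24.1 to 93.1. In the other direction, a region in an intron of PEDS1, a plasmalogen desaturase gene, at chr20:50141373-50143653 went from 88.6 to 20.2, and one in an intron of ZMYND8 at chr20:47241475-47242914 went from 87.6 to 20.6. For these 4 regions the libraries of the lines did not overlap, and how many of all tested regions lacked overlap is not given here.

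At the promoters of the genes linked to breast cancer gain, the strongest differed little between the lines and several of the others fell. Those of ZNF217, AURKA, BCAS1, TFAP2C, PTK6, PFDN4, TPD52L2 and ZMYND8 stood above a shared-set percentile of 99 in both lines, where a rise can hardly be measured. Their differences were between -0.12 and 0.03 points, and none of the 8 passed the threshold in limma. NCOA3 fell from 99.3 in BT474 (99.1 to 99.4) to 91.2 in BT474R (88.1 to 95.8), a difference of -8.12 points (SE 0.345, limma adjusted p = 1.1e-15). CYP24A1 fell from 97.3 to 89.2 (-8.10 points, SE 0.708), BCAS4 from 89.8 to 79.5 and PTPN1, a tyrosine phosphatase gene, from 94.8 to 87.0. The libraries of the lines did not overlap at any of these 4 promoters. How many of all tested regions lacked overlap is not given here, but 41% of that set ranked higher and 42.1% lower. The remaining members that fell included PREX1 and EEF1A2, described below. Of the 21 genes in the list 2, RAE1 and RBM38, ranked higher and 11 lower, with a median difference of -1.40 points. The median over all regions tested, promoters and others together, was -0.15.

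Of 13 transcription factor promoters tested 1 ranked higher and 10 lower, with a median of -9.42 points. Over all regions tested 41% ranked higher and 42.1% lower. That set holds 12980 promoters among 25166 regions, so it is unlike a list of promoters, and shares for promoters alone are not given here. In the genome the median list percentile of promoters was 72.3 in BT474 and 70.0 in BT474R. The lists were not tested against each other or against the rest. ADNP, a chromatin regulator, went from 93.8 (91.5 to 96.6) to 42.5 (23.9 to 62.4), a difference of -51.4 points (SE 2.04). NFATC2, which responds to calcium signalling, fell by 28.5 points from 85.3, and ZNF335 and ZNF512B fell by 39.9 and 38 points, with overlapping libraries. SNAI1, a driver of epithelial-mesenchymal transition, fell from 72.3 to 63.0, and SALL4, a stem cell factor, from 52.5 to 34.1. CEBPB, a bZIP transcription factor gene, fell by 1.54 points from 99.4. The riser was TAF4, a subunit of TFIID, at an alternative start 60.6 kb from the gene's own, which went from 25.4 to 68.3 (42.9 points, SE 1.14).

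In receptor and growth factor signalling, 2 of 10 tested promoters ranked higher and 5 lower, with a median of -1.23 points. The risers were SLC2A10, a glucose transporter (6.22 points), and RBM38, an RNA-binding protein (0.53 points). PREX1, an exchange factor for Rac that acts downstream of growth factor receptors, is also on the breast cancer gain list and had the largest fall of all listed genes, at a start 170 kb from the first. It went from 91.2 (86.2 to 94.1) to 35.1 (21.5 to 48.5), a difference of -56.1 points (SE 1.41, limma adjusted p = 1.0e-19).

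Of 23 housekeeping promoters tested, 3 ranked higher and 16 lower (median -5.87 points), beside 41% and 42.1% of all regions. This background, of promoters and other regions together, also stands beside the lists that follow. DPM1, a mannosyltransferase subunit, fell by 52.2 points (SE 4.36) from 83.3. The promoter shared by PSMA7, a proteasome subunit, and SS18L1 fell by 21.8 points and is 1 region for both genes. Of 7 tested genes of vitamin D, steroid and hormone function 1 ranked higher and 4 lower (median -7.41 points), and all 3 tested germline genes ranked lower (median -7.76 points). Among 7 neuronal genes 2 ranked higher and 4 lower (median -3.81 points). CHRNA4, a nicotinic receptor subunit, rose by 36.0 points from 28.4, while EEF1A2, an elongation factor of neurons and muscle, fell by 23.3 points. Of 5 matrix and protease genes 2 ranked higher and 3 lower (median -2.69 points), and COL9A3, a collagen chain, rose from 2.89 to 32.3 at a start 6.74 kb from its first. PCK1, the gluconeogenic enzyme, rose from 6.20 to 27.3.

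Some promoters differed in presence instead. Those of BIRC7, an inhibitor of apoptosis, and CDH22, a cadherin, were open in all 20 BT474 and in no BT474R library. CTSZ, a lysosomal protease, was open in 20 and 7 libraries (Fisher's exact test, adjusted p = 8.9e-05), and SLPI, a secreted protease inhibitor, in 20 and 6 (adjusted p = 2.6e-05). No listed promoter was called open in more BT474R libraries.

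**Figure D4:**
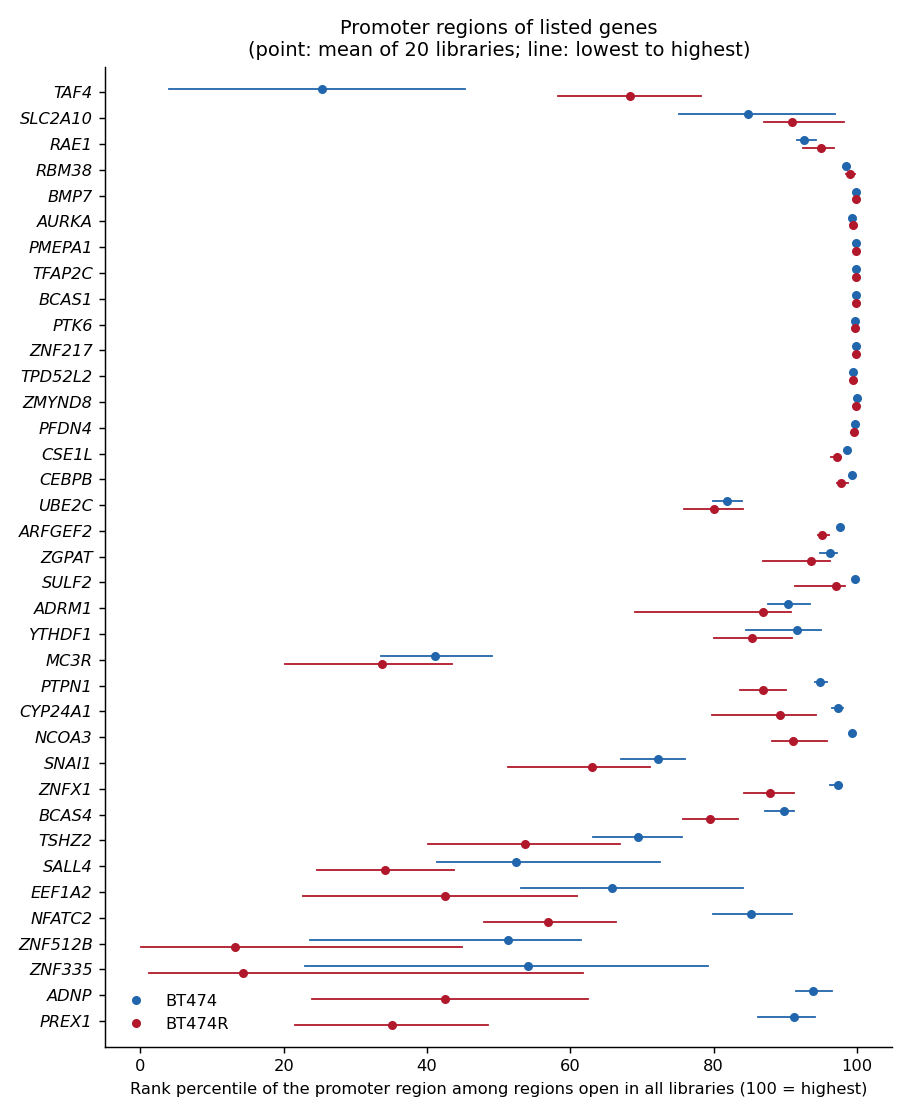
Shared-set percentile (x axis, 100 is the highest) of the promoter regions of genes from the breast cancer gain, transcription factor and receptor signalling lists (y axis), as the mean (point) and the range (line) of 20 libraries of BT474 (blue) and BT474R (red). ZNF217, TFAP2C and BCAS1 sit above 99 in both lines, NCOA3 and PTPN1 are lower in BT474R without overlap, and PREX1 and ADNP go from above 90 to below 45.

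With ligand, more members gained than lost a peak, although no region passed the adjusted threshold. Presence was compared with Fisher's exact test in the 6 EGF or HRG libraries of a line against its 6 control libraries, and 0 regions of the segment or the genome had an adjusted p under 0.05. Gained and lost are used here for an unadjusted p under 0.05. EGF-BT474 gained 24 members (1.55%, against 1.15% of all regions) and lost 0 (0.0433% of all regions). HRG-BT474 gained 30 (1.94%, against 1.33%) and lost 2 (0.13%, against 0.311%). EGF-BT474R gained 15 (0.972%, against 0.349%) and lost 0 (0.0391%), and HRG-BT474R gained 6 (0.389%, against 0.207%) and lost 0 (0 of all regions). In either direction the shares of all regions were 1.19%, 1.64%, 0.388% and 0.207%, in the same order. The mean list length was 50008 peaks in BT474 controls, 53680 in EGF-BT474 and 51469 in HRG-BT474, and 45199, 46311 and 49425 in BT474R, and its part in these counts was not tested. With lists of equal length the gains and losses were 9 and 3, 13 and 3, 7 and 6, and 1 and 2, in the same order. Without the 12 h libraries, an alternative added after seeing the data, they were 13 and 0, 16 and 2, 10 and 1, and 1 and 0. Single libraries mattered as well. Leaving out HRG 1 h replicate 1 or 2 of BT474 raised its count from 32 to 49 or 54, and leaving out EGF 1 h replicate 2 raised that of EGF-BT474 from 24 to 38. Leaving out control 1 h replicate 1 or 2 of BT474R raised the counts of EGF-BT474R to 25 or 23 and of HRG-BT474R to 16 or 14. What lay behind these increases was not tested.

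In EGF-BT474, HRG-BT474 and EGF-BT474R, the regions named for the smallest p had no peak in any control or baseline library of their line. Their absence in controls follows from the choice by smallest p. The region 53.8 kb from CEBPB, at chr20:50244427-50244889, had a peak in all 6 EGF-BT474 libraries (list percentiles 11.1 to 45.8) and all 6 HRG-BT474 libraries (21.7 to 46.3), and in no control or baseline library. In BT474R it had a peak only in the EGF libraries at 24 h. The region 69.5 kb from PTPN1, at chr20:50440523-50441206, was open in the same 12 BT474 libraries, and in BT474R it was open in all 6 EGF and all 6 HRG libraries and in 1 control library. In BT474R the regions 3.9 kb from KCNS1, a potassium channel subunit gene, at chr20:45104830-45105238 and at chr20:53926578-53927127, with no protein-coding start within 100 kb, were open in 6 EGF, 5 HRG and 0 control libraries. Both had also a peak in all 12 ligand libraries of BT474. The region at chr20:53926578-53927127 had a peak in 13 of the 20 BT474 libraries, so it was not limited to ligand libraries there. Each 6 against 0 had p = 0.00216 in Fisher's exact test, the smallest that 6 against 6 allows, and adjusted p-values of 0.363 to 1.

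Losses were fewer. The region 27.5 kb from MRGBP, a subunit of the NuA4 acetyltransferase complex, at chr20:62768759-62769145 had a peak in 5 of 6 BT474 controls, 0 HRG-BT474 and 1 EGF-BT474 library. It had no peak in either baseline library or in any BT474R library. A region in a CDH4 intron, at chr20:61896174-61896561, was open in 6 controls and 1 HRG-BT474 library.

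In ranks, EGF-BT474 raised 62 and lowered 15 of the 578 always-open members, against 9.7% and 3.79% of all regions tested (limma, adjusted p under 0.05). HRG-BT474 raised 70 and lowered 40 (10.2% and 6.02%), EGF-BT474R raised 77 and lowered 66 (11.5% and 9.84%), and HRG-BT474R raised 24 and lowered 25 (4.3% and 2.9%). The medians of the members were 0.09, -0.04, -0.06 and -0.64 points and those over all regions -0.49, -0.73, -0.59 and -0.57. The balance depended on the scale. A list percentile is taken over all peaks of a list and can move with list length, unlike one over the same regions in every library. The part of list length in the counts that follow was not tested. With list percentiles in place of shared-set percentiles, EGF-BT474 raised 95 and lowered 0, HRG-BT474 75 and 22, EGF-BT474R 83 and 53 and HRG-BT474R 74 and 5. No direction can be given for the members as a group in HRG-BT474R, with 24 raised and 25 lowered on the shared set and a balance that turned with the scale. Leaving out control 24 h replicate 1 also reduced its calls from 49 to 27. Without the 12 h libraries the rank calls were 34 and 7, 41 and 13, 46 and 35, and 1 and 3.

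More changes were called at later times in EGF-BT474, which raised 5 and lowered 4 members at 1 h, 24 and 6 at 12 h and 61 and 15 at 24 h. HRG-BT474 raised 20 and lowered 14 at 1 h, 34 and 12 at 12 h and 62 and 19 at 24 h. EGF-BT474R raised 12 and lowered 5, then 57 and 31, then 52 and 44. In HRG-BT474R the numbers were 2 and 0, 20 and 23, and 2 and 4, so that its calls lay at 12 h, the time at which the BT474R control lists were shortest. The calls of all regions at these times, raised and lowered, were 1.43% and 1.32%, 3.95% and 1.64%, and 8.42% and 3.19% in EGF-BT474. They were 3.38% and 4.03%, 4.82% and 2.08%, and 8.46% and 2.83% in HRG-BT474. In EGF-BT474R they were 1.48% and 1.62%, 7.2% and 4.73%, and 7.87% and 5.68%, and in HRG-BT474R 0.0199% and 0.0199%, 4.29% and 2.48%, and 0.596% and 0.207%. Whether the times differed from each other was not tested, and with 2 libraries per group the counts by time moved with single libraries. For EGF-BT474 at 12 h, 51 members were called without EGF 12 h replicate 1 and 1 without replicate 2, and for HRG-BT474R at 12 h 7 were called without control 12 h replicate 1. With list percentiles EGF-BT474 raised 7 and lowered 3, then 36 and 1, then 78 and 2, HRG-BT474 17 and 19, 44 and 1, and 55 and 6, and EGF-BT474R 0 and 4, 67 and 29, and 77 and 25. HRG-BT474R at 12 h then raised 116 and lowered 3, so the direction at that time turned with the scale. The BT474R lists at 12 h held a mean of 36405 peaks in controls and 44206 with HRG, and the part of this was not tested.

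The SDC4 and BCAS4 introns had the smallest p among the regions that rose in BT474. The region in SDC4, which encodes the heparan sulphate proteoglycan syndecan-4, at chr20:45336469-45337255 had shared-set percentiles of 28.4, 34.3 and 40.2 (lowest, median and highest of 6 libraries) in BT474 controls, 47.4, 48.3 and 57.8 in EGF-BT474 and 47.4, 52.3 and 60.6 in HRG-BT474. The ligand libraries lay above all controls, by a mean of 16.3 (SE 1.67) and 18.6 points. In BT474R the values were 14.4, 21.0 and 35.4 in controls, 38.1, 44.7 and 50.6 with EGF and 16.8, 25.5 and 47.2 with HRG. EGF raised it in BT474R by 22 points (SE 1.67, limma adjusted p = 3.2e-09), and with HRG the 24 h libraries, at 17.0 and 16.8, lay within the controls of that time. The region in BCAS4, a gene first found amplified in breast cancer, at chr20:50798669-50799213 had values of 5.09, 8.36 and 15.9 in BT474 controls, 22.8, 34.9 and 41.5 in EGF-BT474 and 33.0, 38.7 and 44.5 in HRG-BT474. It rose by 24.2 (SE 2.17) and 30.0 points (limma adjusted p = 1.1e-07 and 2.3e-09). In BT474R its values were 2.73, 14.7 and 20.5 in controls, 30.0, 35.6 and 41.0 with EGF and 14.8, 23.5 and 25.1 with HRG.

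Among the regions with the smallest p for a fall in BT474R were those near TFAP2C and PMEPA1, each lower at 24 h with EGF. The region 39.8 kb from TFAP2C, at chr20:56668680-56669629, stood at 62.0 and 57.4 in the BT474R controls at 1 h and at 58.8 and 54.9 at 24 h. With EGF it stood at 61.6 and 65.2 at 1 h, 33.1 and 27.9 at 12 h and 20.6 and 12.1 at 24 h. The difference from control was -29.6 points at 12 h and -40.5 points at 24 h (SE 3.62, limma adjusted p = 1.4e-07). With HRG it was -19.8 and -25.4 points at those times. The region 46.4 kb from PMEPA1, at chr20:57756929-57758895, stood at 73.5 and 72.7 in the BT474R controls at 24 h and at 48.6 and 50.3 with EGF, a difference of -23.6 points. In BT474 the same region stayed between 87.1 and 96.6 in all control, EGF and HRG libraries.

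Other regions rose in BT474R. The LINC01271 exon at chr20:50320999-50321643, in a long non-coding gene with no protein-coding start within 100 kb, went from 2.58 to 8.21 in the BT474R controls to 18.0 to 42.0 with EGF, and its 24 h libraries stood at 42.0 and 40.2. The rise was 24.9 points over the times and 36.9 points at 24 h. The region 79.8 kb from EYA2, a developmental phosphatase gene, at chr20:46814468-46815208 went from 15.6 and 12.9 in the 24 h controls to 45 and 44.1 with EGF, a rise of 30.3 points, and over the times HRG raised it by 9.92 points. The region 63.0 kb from NCOA3, at chr20:47438357-47439469, rose by 29.4 points with EGF and 25.1 points with HRG at 12 h. Its 12 h controls, at 8.83 and 18.3, lay below those of 1 h, at 41.6 and 39.5, and of 24 h, at 27.4 and 29.4. An intronic region of NCOA3 at chr20:47527100-47527950 rose by 36.1 points at 1 h with EGF, from 14.2 and 16.4 to 50.5 and 52.2, and at 12 and 24 h its EGF libraries stood at 0.46 to 1.43, below the controls.

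**Figure D5:**
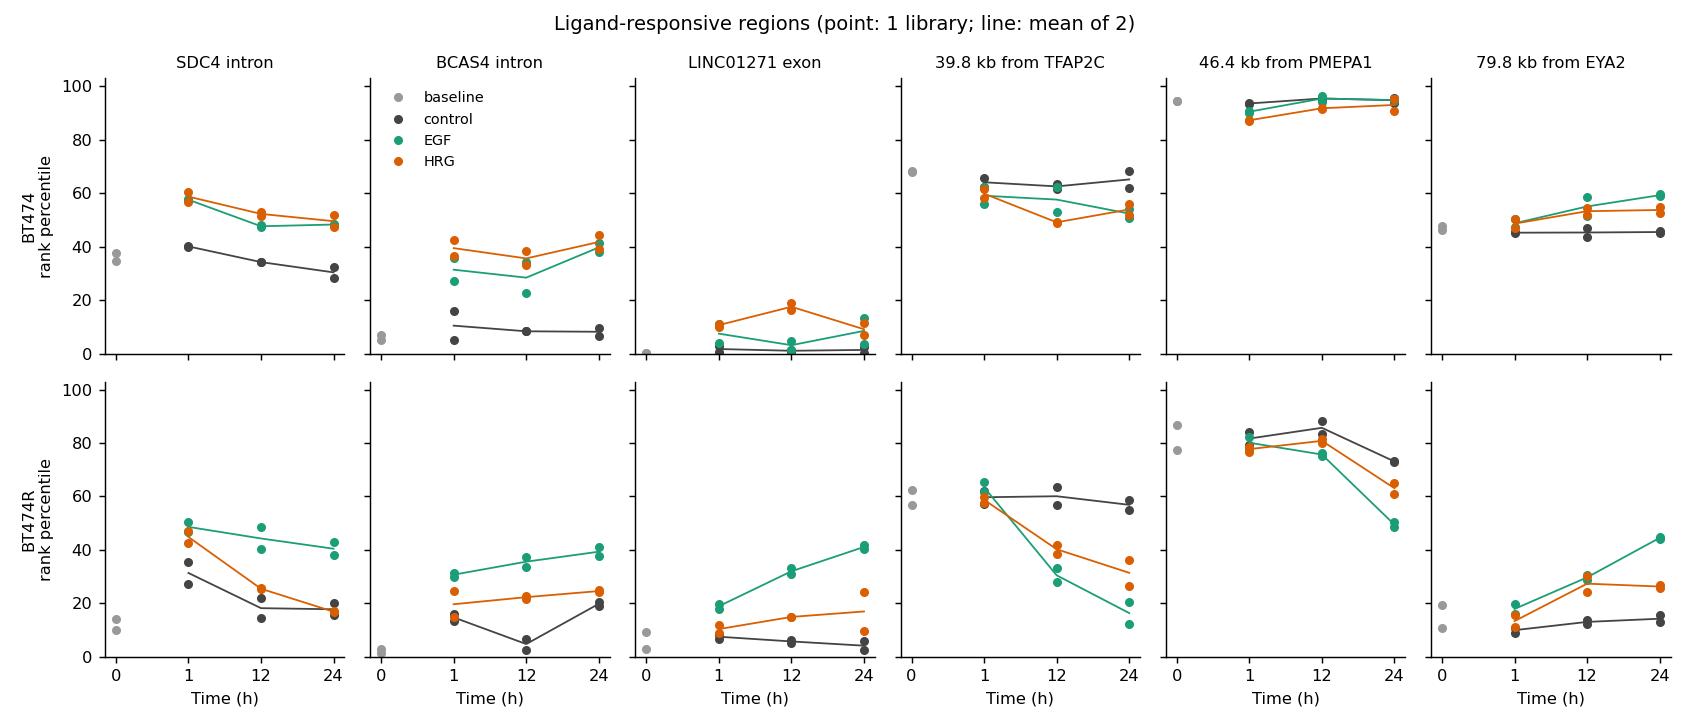
Shared-set percentile (y axis, 100 is the highest) of 6 ligand-responsive regions at 0, 1, 12 and 24 h (x axis, not to scale) in BT474 (top) and BT474R (bottom), as 1 point per library and a line through the mean of 2. The SDC4 and BCAS4 introns lie above control with both ligands in BT474, and the region near TFAP2C falls to 20.6 and 12.1 with EGF at 24 h in BT474R.

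In BT474 at 24 h, regions rose and a SALL4 promoter region fell. A region in a PPP4R1L intron, 39.7 kb from ANKRD60, at chr20:58267329-58269416 went from 77.8 and 77.2 in controls to 92.3 and 91.4 with EGF and 91.1 and 93.1 with HRG, rises of 14.4 and 14.6 points. A region with no protein-coding start within 100 kb at chr20:53777127-53778791 rose by 17.9 points with HRG at 24 h. The promoter region of SALL4, at chr20:51799932-51801755, fell by 18.2 points with EGF and by 21.3 points with HRG at 24 h. Over the times, 0 of the 21 breast cancer gain promoters and 0 of 10 tested signalling promoters were called in any of the 4 comparisons. Of 13 transcription factor promoters, TAF4 rose and SALL4 fell with both ligands in BT474, and SALL4 also fell in EGF-BT474R. Of 23 housekeeping promoters 1 rose (TAF4, which is on both lists) and 3 fell in EGF-BT474, the latter at LSM14B and at the region shared by PSMA7 and SS18L1. Only TAF4 was called among them in HRG-BT474, and DNAJC5, a lower one, in EGF-BT474R. Of 5 matrix and protease promoters WFDC3, a whey acidic protein family gene, rose in EGF-BT474, HRG-BT474 and EGF-BT474R, and of 7 neuronal ones STMN3, a stathmin gene, fell in EGF-BT474. SALL4 is also 1 of the 3 tested germline genes. In HRG-BT474R no listed promoter was called over the times. At single times NCOA3 rose by 6.85 points at 1 h in HRG-BT474R (limma adjusted p = 0.0176).

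The difference between the lines in their response was tested as an interaction in limma. For EGF, 13 members responded more upwards in BT474R and 15 more downwards, against 1.3% and 2.08% of all regions. For HRG the numbers were 2 and 13, against 0.274% and 1.28%. The LINC01271 exon had the smallest p for EGF upwards, with a response 19.9 points higher in BT474R (SE 2.80, limma adjusted p = 2.7e-04). The region 46.4 kb from PMEPA1 responded to EGF 10.7 points lower in BT474R. The BCAS4 intron responded to HRG 20.9 points lower in BT474R (SE 3.06, limma adjusted p = 5.3e-04), whereas its EGF response is given above by line. The PPP4R1L intron responded to HRG 7.41 points lower in BT474R, where it stood at 95.7 to 97.9 already in controls. Without BT474 EGF 24 h replicate 1, 17 regions were called for EGF, and without the 12 h libraries 3 were called for EGF and 6 for HRG.

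The AP-1 letters were counted in members that responded to a ligand and in those that did not. They were found in 16.5% of the members, 14.7% of regions on the rest of the chromosome and 16.3% of the genome. Among gained members they were found in 13 of 24 (54.2%) in EGF-BT474, 56.7% of 30 in HRG-BT474, 12 of 15 (80.0%) in EGF-BT474R and 6 of 6 in HRG-BT474R. Over the genome the shares among gained regions were 64.9%, 69.8%, 76.8% and 79.1%. Among members raised in rank the shares were 41.9%, 52.9%, 55.8% and 70.8%, and among those lowered 0%, 2.5%, 4.55% and 8.0%, in the same order. Over the genome they were 46.9%, 48.6%, 49.4% and 50.2% among raised and 1.89%, 2.77%, 4.00% and 3.01% among lowered regions. Between the lines, the GATA letters AGATAA were found in 15.1% of the 358 members open in fewer BT474R libraries and 3.70% of the 135 open in more, and in 12.3% and 9.08% of such regions over the genome. The CTCF letters CCANNAG followed by NNGGC were found in 10.4% of the 289 members that ranked lower in BT474R and 3.48% of the 201 that ranked higher, and in 5.72% and 3.63% of such regions over the genome. The CEBP letters were found in 9.34% and 16.4% of those members and in 6.996% and 10.7% of such regions over the genome. Of the other motifs searched, the FOXA letters TGTTTAC were found in 8.30% and 11.4% of them (genome 5.87% and 8.06%) and the ETS letters CCGGAAG in 5.54% and 0.995% (genome 9.32% and 5.596%). The TFAP2 letters were found in 17.0% and 15.4% (genome 22% and 20.1%), and a full estrogen response element was found in 0 members. All were searched on both strands within 100 bp of the summit, and these shares are descriptions without a test. Between the lines, the AP-1, CTCF, CEBP, FOXA, ETS and TFAP2 shares by presence and the AP-1 and GATA shares by rank are not given.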

How the data were processed

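Chromatin accessibility was measured by ATAC-seq in 40 libraries, 2 for each of 20 groups of line, arm and time taken from the sample labels. Per the study's methods and processing notes, the authors trimmed reads with Trim Galore 0.6.6, mapped them to GRCh38 with BBMap and called peaks in each library with Genrich, removing mitochondrial reads and blacklisted regions. The sources used here do not give the Genrich options, including any shift for the transposase, which can change the width and number of peaks. The peak score in the lists deposited by the authors is the area below Genrich's significance curve, with a minimum of 200 in all lists. The deposited −log10 p and −log10 q were not used. Read counts were not analysed here, so the study's count model was not repeated.

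Peaks of chromosomes 1 to 22 and X were merged as described, and no peak passed the end of its chromosome in the reference. Gene starts were taken from GENCODE, and a region was named with the nearest protein-coding start within 100 kb. Presence was tested with Fisher's exact test (two-sided, 6 against 6 libraries for ligands and 20 against 20 for lines). The shared-set percentile was tested with limma 3.58.1 (R 4.3.3) with the 20 groups as the design and 20 residual degrees of freedom. Adjusted p-values are Benjamini-Hochberg values over all regions tested. Shares and densities are descriptions with no test. Both tests were checked on simulated data. Tables were made with pandas 2.3.3 and numpy 2.4.6 in Python 3.11.15, Fisher's test with scipy 1.17.1 and plots with matplotlib 3.10.9.

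The segment, the gene lists and the tests were chosen with earlier results of these data known. Regions were named by a rule: up to 2 per comparison and direction with the smallest p, and the 10 with the highest mean percentile. Ties in p went to the larger difference, then to the higher mean list percentile, then to position. Listed genes were named if their promoters differed most or were open in the most or fewest libraries, together with 11 fixed genes. Bins were named if they were the 3 highest or lowest in density, percentile or line difference, and other bins and listed genes named were chosen after their values were seen. The alternatives were lists of equal length (the 32479 top peaks), a score of at least 400, peaks trimmed to 400 bp, regions in at least 4 lists, list percentiles, normal scores, regions open in at least 30 libraries, baseline and control libraries only, a replicate block, promoters or other regions only, and each library left out. Leaving out all 12 h libraries was added after seeing the data. Sequences were read from the GRCh38 reference.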

Additional observations from a re-analysis of the deposited data

Results flagged for a closer look

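Among 30 groups of 6 libraries (line and arm, for 5 segment measures) examined for a library far from the others, 2 were found, where chance gives about 1 in 20. In BT474 controls, 24 h replicate 1 had an open share of the segment of 72.3%, while the other 5 libraries had 68.8 to 69.9%. In EGF-BT474, 24 h replicate 2 had an open share 4.75 points above that of the rest of the chromosome, while the other 5 libraries had 1.91 to 2.88 points.

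The response to EGF differed between the lines at 28 members and that to HRG at 15 members, by the interaction test in limma. The direction of the EGF set was balanced, at 13 and 15, and the LINC01271 exon, the region 46.4 kb from PMEPA1 and a BMP7 intron (19.3 points higher in BT474R, limma adjusted p = 0.0115) were among them. Of the 15 regions for HRG, 13 responded lower in BT474R, with the BCAS4 intron having the smallest p.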

How the results depend on the processing

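Depth is unknown without reads, so a missing peak says nothing of signal below the score minimum, and the comparison of lines is one of BT474 with a single clone. Counts below are members called. Between the lines, presence gave 267 with baseline and control libraries only, and the direction was lower in BT474R in each setting run. For presence with ligand, EGF-BT474, HRG-BT474, EGF-BT474R and HRG-BT474R gave 13, 17, 6 and 1 at a score of at least 400. With lists of equal length EGF-BT474, HRG-BT474 and HRG-BT474R gave 12, 16 and 3, and without the 12 h libraries (an alternative added after seeing the data) 13, 18 and 1, and the balance turned to losses in HRG-BT474R with lists of equal length. Ranks without the 12 h libraries gave 41, 54, 81 and 4 in the 4 ligand comparisons and 3 and 6 for the difference between lines in response to EGF and HRG. In HRG-BT474R, where 24 rose and 25 fell, the balance turned with list percentiles (79), normal scores (39) and regions open in at least 30 libraries (68). By time it turned in HRG-BT474 at 1 h (36 with list percentiles, 59 with at least 30 libraries), EGF-BT474R at 1 h (4 with list percentiles), and HRG-BT474R at 12 h (119, 27 and 79 in the 3 settings) and 24 h (8 with list percentiles). The density ratio of 2.84 was 3.02 at a score of at least 400, 3.08 with lists of equal length, 1.63 for promoters, 3.39 for other regions and 3.51 against all other chromosomes. The open share of the segment minus the rest in BT474 was -0.353 points for promoters, a reversal, and 7.005 points for other regions, which in BT474R gave 3.27 points. The median list percentile minus that of the rest was 2.80 for promoters, 12.3 for other regions and 6.52 against other chromosomes in BT474, and in BT474R 7.47 and 12.1 for promoters and other regions, 3.67 at a score of at least 400 and 3.23 with lists of equal length. With 1 library left out in turn, presence gave 503 to 514 between the lines, 24 to 38, 34 to 54, 15 to 25 and 6 to 16 in the 4 ligand comparisons, and ranks gave 483 to 499, 61 to 95, 82 to 124, 121 to 159 and 27 to 66. The response to EGF differed between lines at 17 (without BT474 EGF 24 h replicate 1) to 41 members (without BT474R baseline replicate 1), with the balance turning in 6 of 40, and that to HRG at 12 to 21. By time (1, 12 and 24 h) the ranges were 1 to 15, 1 to 51 and 38 to 89 in EGF-BT474, 7 to 45, 16 to 59 and 39 to 98 in HRG-BT474, 5 to 28, 51 to 102 and 53 to 110 in EGF-BT474R, and 0 to 3, 7 to 57 and 2 to 15 in HRG-BT474R. The lowest count always came without a ligand or control library of that line and time, and the highest in 10 of the 12 cases without BT474R baseline replicate 1. Descriptive values moved by less than the spread between libraries. A replicate block gave 493 and 490 calls between the lines, 24, 32, 15 and 6 for presence and 81, 106, 151 and 50 for ranks with ligand, and 30 and 15 for the differences in response. Same-numbered libraries did not deviate together (median correlation 0.012 in BT474 and -0.0021 in BT474R over 45 pairs each, from -0.415 to 0.617), so the numbers were not taken to pair libraries. The cause of each move was not tested.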
